A study of Mus musculus with 16 samples.

Results

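The genes described here encode the transcription kinases that THZ1 binds, their close partners, and the related kinase CDK9 with its cyclin and inhibitor. They were chosen by symbol, as the 9 rows of a table of 22372 mouse genes whose Ensembl identifiers are annotated as Cdk7, Ccnh, Mnat1, Cdk12, Cdk13, Ccnk, Cdk9, Ccnt1 and Hexim1. All 9 passed the filter on low values. The rule that chose them used symbols only, but earlier results of these data were known when it was set.

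The table holds bulk RNA-Seq of heart ventricle from male C57BL/6J mice, 10 to 12 weeks old at the start, with 4 mice in each of 4 groups and a library from each mouse. TAC mice had a suture placed around the aortic arch, which narrows it and loads the left ventricle with pressure, and sham mice had the operation without the constriction. THZ1 was injected into the peritoneum at 10 mg/kg, 2 times daily, starting on postoperative day 1 and ending on day 60. The groups are sham with vehicle (Sham-Veh), sham with THZ1 (Sham-THZ1), TAC with vehicle (TAC-Veh) and TAC with THZ1 (TAC-THZ1). The labels name no engineered allele, and the drug was given to the whole animal rather than to a single cell type.

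Transcription by RNA polymerase II is paced by kinases that phosphorylate the repeated tail (CTD) of its largest subunit. CDK7 with cyclin H (Ccnh) and the assembly factor MAT1 (Mnat1) forms the CDK-activating kinase of the general factor TFIIH, which acts at initiation and also activates other CDKs. CDK9 with cyclin T1 (Ccnt1) forms P-TEFb, which releases polymerase paused near the start site and is held inactive by HEXIM1 on the 7SK RNA, and CDK12 and CDK13, each with cyclin K (Ccnk), phosphorylate the tail during elongation. THZ1 is a covalent inhibitor that reacts with a cysteine outside the catalytic fold of CDK7 and with corresponding cysteines of CDK12 and CDK13. In the heart, P-TEFb activity is known for its link to hypertrophic growth.

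The coding sequence around that cysteine is shown because it is the site of the covalent bond in the 3 kinases known to be bound. The following are 45 bases of coding strand from GENCODE transcripts on build NCBIM37 (mm9), 5′ to 3′, with the cysteine codon in capitals.
Cdk7: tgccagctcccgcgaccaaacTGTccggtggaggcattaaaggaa
Cdk12: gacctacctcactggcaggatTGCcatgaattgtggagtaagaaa
Cdk13: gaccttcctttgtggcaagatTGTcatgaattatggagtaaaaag
The codon is number 312 of 346 in Cdk7 (minus strand, chr13:101474401-101474445 for the 45 bases), number 1035 of 1484 in Cdk12 (plus strand, codon at chr11:98104694-98104696) and number 1017 of 1511 in Cdk13 (minus strand, codon at chr13:17813106-17813108). The stretches of Cdk12 and Cdk13 each cross an exon junction. In these genes the codon is the last cysteine codon that the 2 reading frames share when aligned, and 55.1% of the 1256 aligned codons encode the same amino acid. Cdk9, which is not a covalent target, has its last cysteine codon at position 245 of 372, so its last 127 codons hold none.

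Library sizes, recovered as whole reads from the normalized values, ran from 21431703 to 35812869, and mitochondrial genes took 33.2 to 44.7% of them. Each member had 203 to 1032 reads in every library. The heart label fitted its markers: the 7 cardiomyocyte genes measured summed to 707283 to 1448259 normalized counts per library and none was at 0. All values are normalized read counts unless a sentence says otherwise, and p-values measure the spread between mice. The main limma fits pooled that spread over all 4 groups. Their p-values therefore do not measure the spread of the 2 groups compared alone. In bulk ventricle, fewer cells of a type and less RNA per cell cannot be told apart. Only mRNA was measured, so the values do not give protein levels or kinase activity.

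Compared per annotated length, the cyclins were the more abundant mRNAs of the CDK7 and CDK12/13 complexes, and the kinase was the more abundant one in P-TEFb. The length of all annotated exons of a gene and the length of its transcript with the longest coding sequence gave different orders, and the pairs in this paragraph kept their order on both lengths in all 16 libraries. Ccnh exceeded Cdk7 by a median of 2.77-fold per exon kilobase and 4.53-fold per transcript kilobase. Mnat1 exceeded Cdk7 by 1.64-fold and 1.49-fold on the same lengths. Both comparisons with Cdk7 depend on its annotated lengths of 8.386 and 7.595 kb, although its coding sequence has 1041 bases. The coding sequences of Ccnh and Mnat1 have 984 and 930 bases. As counts not divided by length, Ccnh was 0.770 to 1.28 times Cdk7, and Mnat1 was 0.413 to 0.817 times Cdk7. Ccnk, the shared cyclin, exceeded Cdk13 by 2.39-fold on both lengths and Cdk12 by 8.04-fold per exon kilobase and 3.52-fold per transcript kilobase.

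Cdk13 was the more abundant of the paired kinases, 3.39-fold over Cdk12 per exon kilobase and 1.48-fold per transcript kilobase. Cdk9 exceeded its cyclin Ccnt1 by 1.82-fold and 3.91-fold on these lengths, and both pairs kept their order in all 16 libraries. Whether Cdk9 or its inhibitor Hexim1 was higher depended on the length: the ratio Cdk9 to Hexim1 had a median of 0.762 per exon kilobase and 2.03 per transcript kilobase. In Sham-Veh mice the order of the levels per exon kilobase ran from Ccnk at 272 ± 17.1 (SD, n = 4) through Ccnh, Hexim1, Cdk9, Mnat1, Cdk13, Cdk7 and Ccnt1 to Cdk12 at 32.1 ± 1.47. Neighbours in that order did not overlap, except that Cdk9 overlapped Mnat1 and Mnat1 overlapped Cdk13. Per transcript kilobase the order ran Ccnh, Cdk9, Ccnk, Hexim1, Mnat1, Cdk13, Ccnt1, Cdk7 and Cdk12. Cdk9 thus moved above Ccnk and Hexim1, and Ccnk and Ccnh, and Cdk7 and Ccnt1, changed places.

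**Figure D1:**
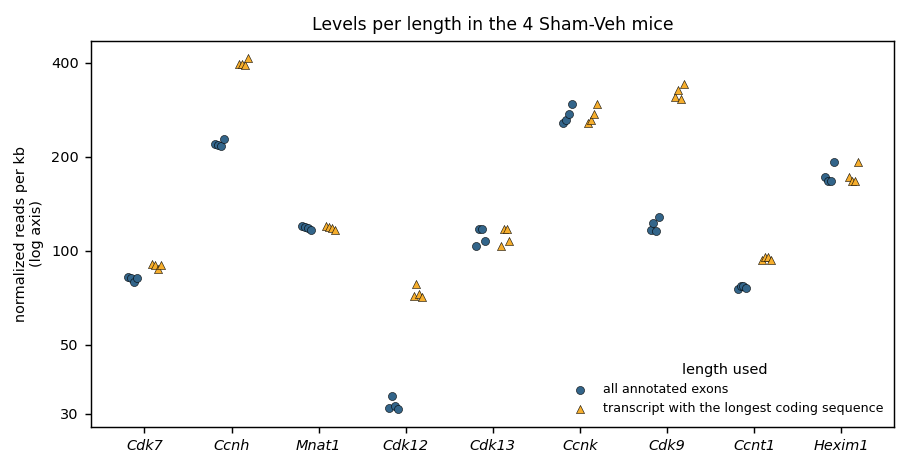
Level of each member in the 4 Sham-Veh mice, in normalized reads per kilobase on a log axis, using the length of all annotated exons (circles) or of the transcript with the longest coding sequence (triangles). Cdk12 is lowest on both lengths, at 32.1 and 73.3 on average, while Cdk9 moves from 121 to 321 and changes its place in the order.

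The first comparison, TAC-Veh against Sham-Veh, asks what pressure overload did to these mRNAs. Ccnk, Ccnh, Ccnt1, Cdk13 and Cdk7 were lower after TAC and Mnat1 was higher, while Cdk12, Cdk9 and Hexim1 did not pass the test. Thus 6 of 9 members were called by limma at an adjusted p under 0.05, beside 45.0% of the 13331 genes tested. In each direction, 5 of 9 were lower and 1 was higher, beside 23.6% and 21.4% of genes. The median change of the members was a log2 fold change of -0.21, against a median of -0.003 over all genes. The size of the changes was ordinary: Ccnk, the most changed member, ranked at percentile 70.1 of all genes by absolute log2 fold change.

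In the CDK-activating kinase, Ccnh fell and Mnat1 rose. Ccnh was at 682, 679, 674 and 710.01 in the Sham-Veh mice and at 536, 467, 594 and 477 in the TAC-Veh mice. Every TAC-Veh mouse was below every Sham-Veh mouse, as held for 4 of 9 members beside 37.3% of genes without overlap in either direction, and the difference was a log2 fold change of -0.41 ± 0.08 (SE), with a limma adjusted p of 3.81e-04. Cdk7, the catalytic subunit, was at 689.5, 683, 666 and 685 in Sham-Veh and at 578, 606, 569 and 609 in TAC-Veh. These groups did not overlap either, and Cdk7 fell by 13.3% (log2 -0.21 ± 0.06, limma adjusted p = 0.0144).

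Mnat1, which joins the kinase to its cyclin, was at 301, 299, 295 and 292 in Sham-Veh and at 473, 377, 345 and 293 in TAC-Veh. The first 3 of the TAC-Veh mice were above all Sham-Veh mice and TAC-Veh mouse 4 lay among them. The log2 fold change was 0.30 ± 0.11 (limma adjusted p = 0.0279), and it was 0.18 (adjusted p = 0.0832) without TAC-Veh mouse 1. The call was also lost without TAC-Veh mouse 2 or Sham-Veh mouse 2, 3 or 4, where the values were 0.29, 0.31, 0.30 and 0.29 and the adjusted p was 0.0522 to 0.0610. It was lost as well with library weights and with the 2 groups fitted alone. Mnat1 was thus called in 10 of 17 settings, with an adjusted p of up to 0.0974.

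Of the elongation kinases, Cdk13 was at 732, 828, 828 and 761 in Sham-Veh and at 681, 669, 632 and 721 in TAC-Veh. The groups did not overlap, with a log2 fold change of -0.22 ± 0.06 (limma adjusted p = 0.00666). Cdk12, its paralog, was at 367, 402, 374 and 364 in Sham-Veh and at 286, 348, 299 and 377 in TAC-Veh. TAC-Veh mouse 4 lay among the sham mice, and the log2 fold change of -0.21 ± 0.09 (95% interval -0.40 to -0.02) had a limma adjusted p of 0.0684, which became 0.0145 (log2 -0.28) without that mouse. Without TAC-Veh mouse 1 the value was -0.15 (limma adjusted p = 0.189), and Cdk12 was called in 1 of 17 settings.

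The mRNA of cyclin K changed more than that of either of its kinases in the point estimate. Ccnk was at 632, 643, 674 and 726 in Sham-Veh and at 396, 465, 505 and 633 in TAC-Veh. The groups overlapped through TAC-Veh mouse 4 alone, and the log2 fold change was -0.44 ± 0.11 (limma adjusted p = 0.00412).

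In P-TEFb, the mRNA of the cyclin fell and that of the kinase did not. Ccnt1 was at 692, 704, 705 and 693 in Sham-Veh and at 571, 517, 500.3 and 649 in TAC-Veh. The groups did not overlap, with a log2 fold change of -0.33 ± 0.09 (limma adjusted p = 0.00749). Cdk9 ranged from 532 to 591 in Sham-Veh and from 567 to 662 in TAC-Veh. Its log2 fold change was 0.15 (95% interval -0.0025 to 0.30, limma adjusted p = 0.101), and it passed the test, at 0.19 with an adjusted p of 0.0468, without TAC-Veh mouse 3. That was the only 1 of 17 settings to call Cdk9, and in the others the adjusted p reached 0.218. Hexim1, which sequesters P-TEFb, gave a log2 fold change of -0.10 (95% interval -0.29 to 0.08).

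**Figure D2:**
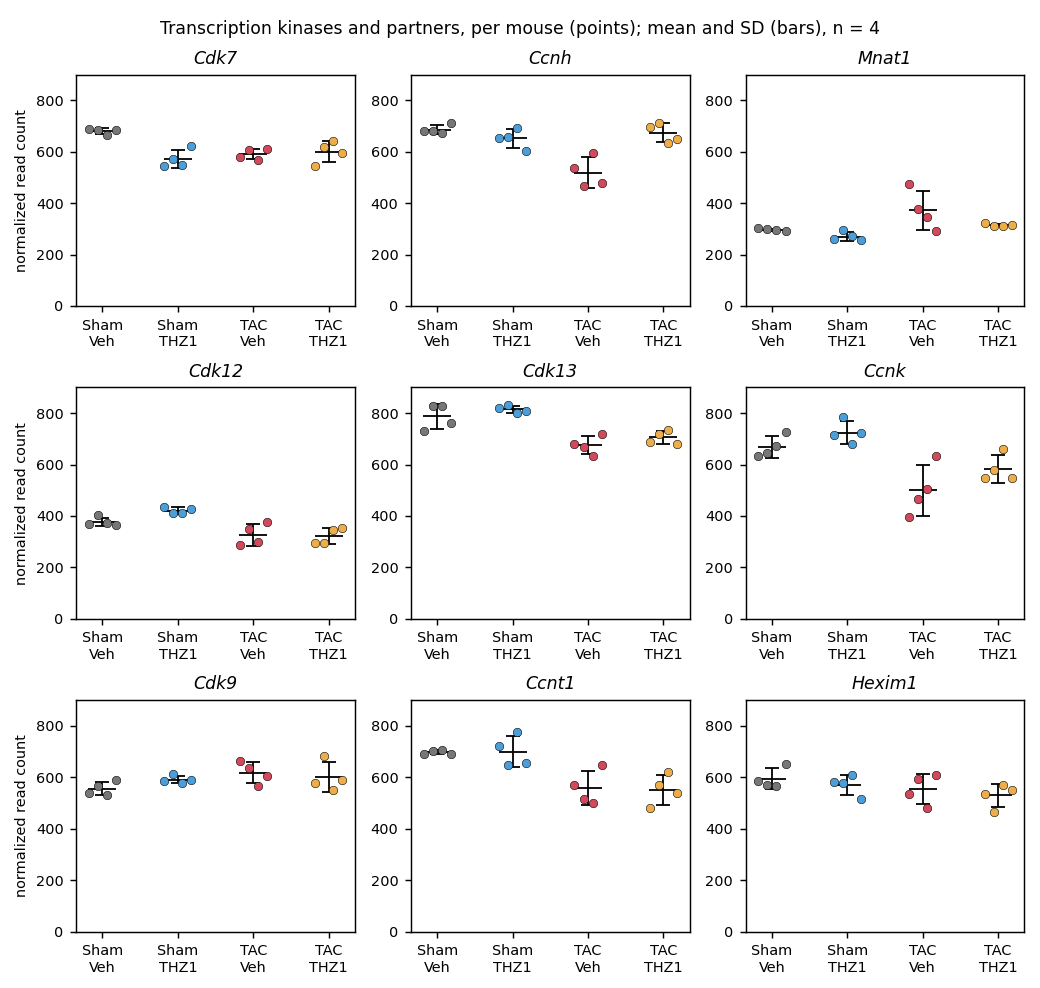
Normalized read count of each member in every mouse (points) with the group mean and SD (bars), 4 mice a group, on axes that start at 0. Ccnh in TAC-Veh (467 to 594) lies below all other groups, and Mnat1 and Ccnk are most widely spread in TAC-Veh, with SDs of 75.6 and 99.4.

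A wider spread in TAC-Veh was seen over all genes. On the log2 scale the median SD over all genes was 0.10 in Sham-Veh and 0.22 in TAC-Veh (0.09 and 0.14 in the sham and TAC mice given THZ1), and Mnat1 and Ccnk stood at 0.29 and 0.28 in TAC-Veh. Marker genes of other cell types moved with the same groups. The 8 fibroblast markers summed to 27975 to 31483 in Sham-Veh and to 71681 to 157473 in TAC-Veh, with 6 of 8 higher after TAC, and the 7 cardiomyocyte markers summed to 1336800 to 1437651 and 707283 to 1037442, with 4 of 7 lower. The 8 macrophage markers summed to 8568 to 10588 and 13140 to 15942, with 5 of 8 higher. The 8 smooth muscle and pericyte markers summed to 23778 to 26878 and 18927 to 26255, with 4 of 8 lower and 1 higher, and the 8 endothelial markers to 23925 to 25997 and 21092 to 27377, with 2 lower and 2 higher. None of these markers was at 0, and their part in the changes of the members was not tested.

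THZ1 in TAC mice was compared next, in TAC-THZ1 against TAC-Veh, a comparison that shares its TAC-Veh libraries with the one above. Ccnh was higher with THZ1, and no mRNA of the 3 kinases that THZ1 binds passed the test. Only Ccnh of the 9 members was called, beside 29.4% of genes called in either direction and 15.1% higher, and the members' median log2 fold change was -0.02, against 0.01 over all genes. The share of all genes depended on the fit. With the 2 groups fitted alone or with library weights, 1 of 9 members was again called, beside 10.5% and 18.1% of genes. Ccnh stood at 697, 712, 633 and 651 in the TAC-THZ1 mice, all of them above the TAC-Veh mice; it was the only member of 9 without overlap, beside 20.0% of genes. The log2 fold change was 0.38 ± 0.08 (limma adjusted p = 0.00171), a rise of 30.2%, and Ccnh was called in all 17 settings tried, those that left out 1 mouse included.

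Cdk7 stood at 545, 619.97, 642 and 595 in TAC-THZ1, on both sides of the TAC-Veh mice. Its log2 fold change was 0.02, with a 95% interval of -0.11 to 0.15. For Cdk12 the interval ran from -0.21 to 0.17 and for Cdk13 from -0.06 to 0.19, so for the 3 bound kinases no interval reached further from 0 than -0.21.

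Ccnk was at 547, 578, 662 and 547 in TAC-THZ1, and Mnat1 at 323, 311, 312 and 314. The 4 Mnat1 values lay close together between the extremes of TAC-Veh, and the highest Ccnk value lay above all TAC-Veh mice. The log2 fold changes were 0.24 for Ccnk (limma adjusted p = 0.112) and -0.22 for Mnat1 (adjusted p = 0.130). Without TAC-Veh mouse 4, Ccnk gave 0.36 (adjusted p = 0.00817) and Mnat1 gave -0.32 (adjusted p = 0.0145), and 3 members were then called, beside 31.2% of genes. Without TAC-Veh mouse 1 they gave 0.13 (adjusted p = 0.314) and -0.10 (adjusted p = 0.394). The P-TEFb members Cdk9, Ccnt1 and Hexim1 gave -0.04, -0.02 and -0.06, with 95% intervals of -0.19 to 0.11, -0.21 to 0.17 and -0.24 to 0.12. With THZ1, 6 of 8 fibroblast markers were lower than in TAC-Veh, with sums of 29924 to 42822, and 5 of 7 cardiomyocyte markers were higher, with sums of 1166920 to 1448259. Neutrophil markers (6 genes) summed to 123 to 286 in TAC-Veh and to 208 to 7398 in TAC-THZ1, with 2 of 4 tested higher, and erythroid markers (6 genes) to 7768 to 13465 and 7128 to 31281, with 0 called. Of 8 endothelial and 8 smooth muscle and pericyte markers, 1 was higher and 2 were lower in each list. The part of any of these in the Ccnh difference was not tested.

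In sham mice, THZ1 was compared with vehicle to ask what the drug did without pressure overload. No member passed the test, and only 0.0675% of genes did. By unadjusted p under 0.05, 1 of 9 members passed, beside 6.88% of genes, and DESeq2 and edgeR on recovered reads called 0 of 9, beside 0.248% and 0.0750% of genes. That member was Cdk7, at 545, 572, 546 and 621 in Sham-THZ1, all below the Sham-Veh mice. The log2 fold change was -0.26 ± 0.06 (95% interval -0.39 to -0.12), larger in size than that of 87.5% of genes, with a limma adjusted p of 0.346. The adjusted p was 0.00726 with library weights and 0.0211 with the 2 groups fitted alone, settings that called 3.85% and 3.49% of genes, and over all settings tried it ran from 0.00726 to 0.970.

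Cdk12 was the other member whose sham groups did not overlap, where 11.3% of genes had no overlap. It stood at 437, 409.7, 410.03 and 428 in Sham-THZ1, above every Sham-Veh mouse, with a log2 fold change of 0.16 (95% interval -0.03 to 0.35). The remaining 7 members gave log2 fold changes from -0.14 for Mnat1 to 0.11 for Ccnk. Sums of the 7 cardiomyocyte and 8 fibroblast markers overlapped between the sham groups. The 8 endothelial markers summed to 23925 to 25997 in Sham-Veh and 26011 to 27579 in Sham-THZ1, and mitochondrial genes took 39.6 to 41.0% and 37.1 to 39.3% of reads, in both cases without overlap. Their part in the Cdk7 and Cdk12 differences was not tested.

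**Figure D3:**
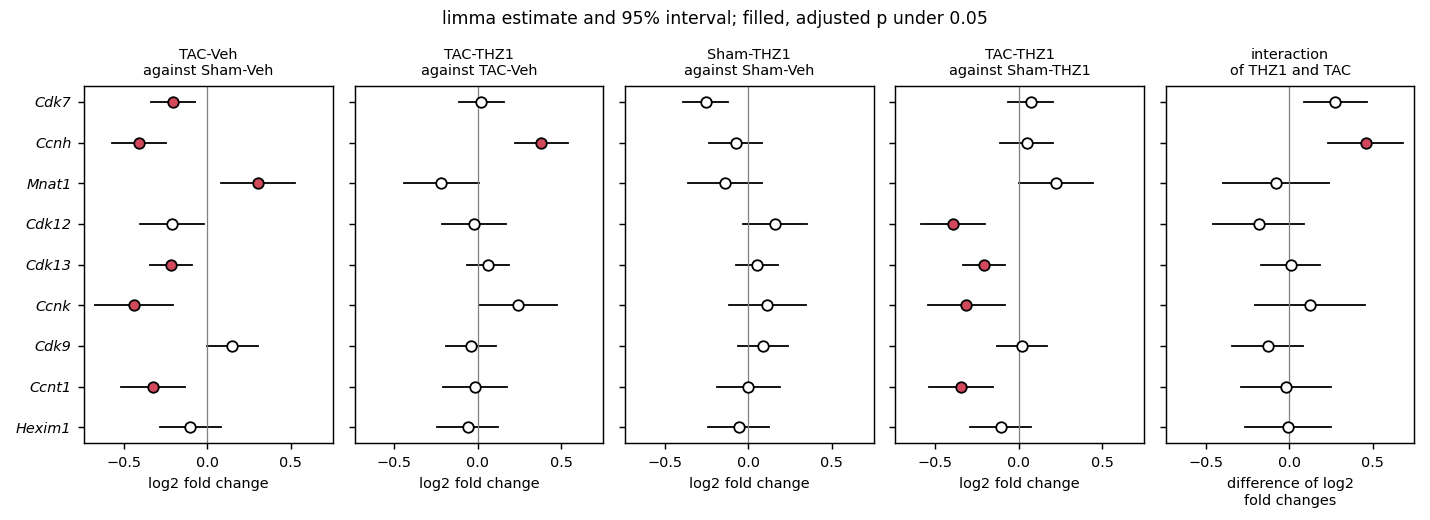
Log2 fold change of each member in the 4 comparisons, and the difference of the THZ1 effect between TAC and sham mice (right), with limma 95% intervals; filled points passed an adjusted p of 0.05. Ccnh is filled in the TAC, THZ1-in-TAC and interaction panels, at -0.41, 0.38 and 0.46.

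Whether THZ1 acted differently in TAC and sham mice was tested as an interaction. Ccnh differed by 0.46 ± 0.11 on the log2 scale (95% interval 0.23 to 0.68, limma adjusted p = 0.0155) between its 0.38 with THZ1 in TAC and its -0.08 with THZ1 in sham. It was called in all 24 settings tried and was 1 of 9 members called, beside 10.0% of genes called in either direction and 4.40% higher. For Cdk7 the difference was 0.28 ± 0.09, with a limma adjusted p of 0.0576 that ran from 0.0317 to 0.114 over the settings. It was under 0.05 in 5 of 24 settings: with upper quartile scaling, with DESeq2, and without Sham-THZ1 mouse 4 (0.32), TAC-Veh mouse 4 (0.29) or TAC-THZ1 mouse 1 (0.32). The other 7 members differed by -0.18 (Cdk12) to 0.12 (Ccnk), and the intervals of all 7 included 0.

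TAC was also compared with sham among THZ1-treated mice, in TAC-THZ1 against Sham-THZ1. The mRNAs of CDK12, CDK13, cyclin K and cyclin T1 were lower after TAC, and those of the CDK-activating kinase were not. This made 4 of 9 members called, all lower, beside 24.2% of genes called in either direction and 12.8% lower. Cdk12 was at 294, 294, 344 and 353 in TAC-THZ1, and every one was below the Sham-THZ1 mice. Its log2 fold change was -0.39 ± 0.09 (limma adjusted p = 0.00647), beside the -0.21 that did not pass with vehicle, and the interaction of -0.18 (95% interval -0.45 to 0.09) did not show that these differ. Over all genes 1514 were higher and 1706 lower, a split that became 1872 and 1371 under upper quartile scaling.

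Ccnt1 stood at 722, 649, 775 and 655 in Sham-THZ1 and at 481, 570.3, 619 and 538 in TAC-THZ1. The groups did not overlap (log2 -0.34 ± 0.09, limma adjusted p = 0.0128), and the value with vehicle had been -0.33. Cdk13 ranged from 800.03 to 831 in Sham-THZ1 and from 679.9 to 735 in TAC-THZ1. Its log2 fold change was -0.21 ± 0.06 (limma adjusted p = 0.0188), and the call was lost without TAC-THZ1 mouse 1 (-0.20, adjusted p = 0.0544) or mouse 4 (-0.19, adjusted p = 0.0526).

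Ccnk was at 713, 783, 678 and 721 in Sham-THZ1, above every TAC-THZ1 mouse. Its log2 fold change of -0.31 ± 0.11 had a limma adjusted p of 0.0482 and was called in 7 of 17 settings. The call was lost without any 1 of the Sham-THZ1 mice or TAC-THZ1 mouse 1, 2 or 4, where log2 fold changes were -0.34 to -0.27 and adjusted p-values 0.0630 to 0.124. Groups did not overlap for 5 of 9 members, the fifth being Mnat1 (log2 0.22, 95% interval -0.0002 to 0.45, limma adjusted p = 0.132), beside 33.4% of genes. Mnat1 was called in 2 of 17 settings, with an adjusted p that ran from 0.0267 to 0.252. Ccnh and Cdk7, at 0.05 and 0.07, had 95% intervals of -0.11 to 0.21 and -0.06 to 0.20. The 8 macrophage markers summed to 8364 to 10098 in Sham-THZ1 and 9536 to 19097 in TAC-THZ1, with 4 of 8 higher. Smooth muscle and pericyte markers summed to 26170 to 27478 and 19331 to 20246, with 5 of 8 lower, and endothelial markers to 26011 to 27579 and 20041 to 22771, with 3 lower and 2 higher. Fibroblast markers summed to 27285 to 29838 and 29924 to 42822, with 3 higher and 1 lower, 3 of 4 tested neutrophil markers were higher, and 2 of 7 cardiomyocyte markers were lower. The part of these markers in the members' differences was not tested.

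Ratios of partners within a library do not depend on the scaling of libraries. The 6 ratios were compared in 4 comparisons, 24 tests in all, by a two-sided exact permutation test of 4 mice against 4, whose smallest possible p is 0.0286. None of the 24 passed after Benjamini-Hochberg adjustment, which would have needed 14 tests at that smallest p. The 3 that reached 0.0286 were all in TAC-Veh against Sham-Veh, each with an adjusted p of 0.229, and without any 1 mouse the smallest p is 0.0571.

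The log2 ratio Mnat1/Cdk7 was -1.19, -1.19, -1.17 and -1.23 in Sham-Veh and -0.29, -0.69, -0.72 and -1.06 in TAC-Veh. All TAC-Veh mice had more Mnat1 per Cdk7 than any Sham-Veh mouse, by 0.51 on average, and the difference was 0.38 to 0.63 when each mouse was left out. The log2 ratio Ccnt1/Cdk9 was 0.36, 0.32, 0.40 and 0.23 in Sham-Veh and -0.21, -0.30, -0.18 and 0.10 in TAC-Veh. Every TAC-Veh mouse had less cyclin T1 mRNA per Cdk9 than any Sham-Veh mouse, with a mean difference of -0.48. Hexim1/Cdk9 differed by -0.25, and its groups were nearly tied at the edge. The highest TAC-Veh mouse (4) was at 0.00808 and the lowest Sham-Veh mouse (2) at 0.00816. By the limma fits, Cdk9 and Hexim1 themselves did not pass.

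Ccnh/Cdk7 differed by -0.20 after TAC (exact permutation p = 0.143) and by 0.36 with THZ1 in TAC (exact permutation p = 0.0571), and both pairs of groups overlapped. Ccnk/Cdk12 and Ccnk/Cdk13 differed by -0.23 and -0.22 after TAC (exact permutation p = 0.114 and 0.200), and Ccnk/Cdk13 gave -0.11 (exact permutation p = 0.400) without TAC-Veh mouse 1.

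**Figure D4:**
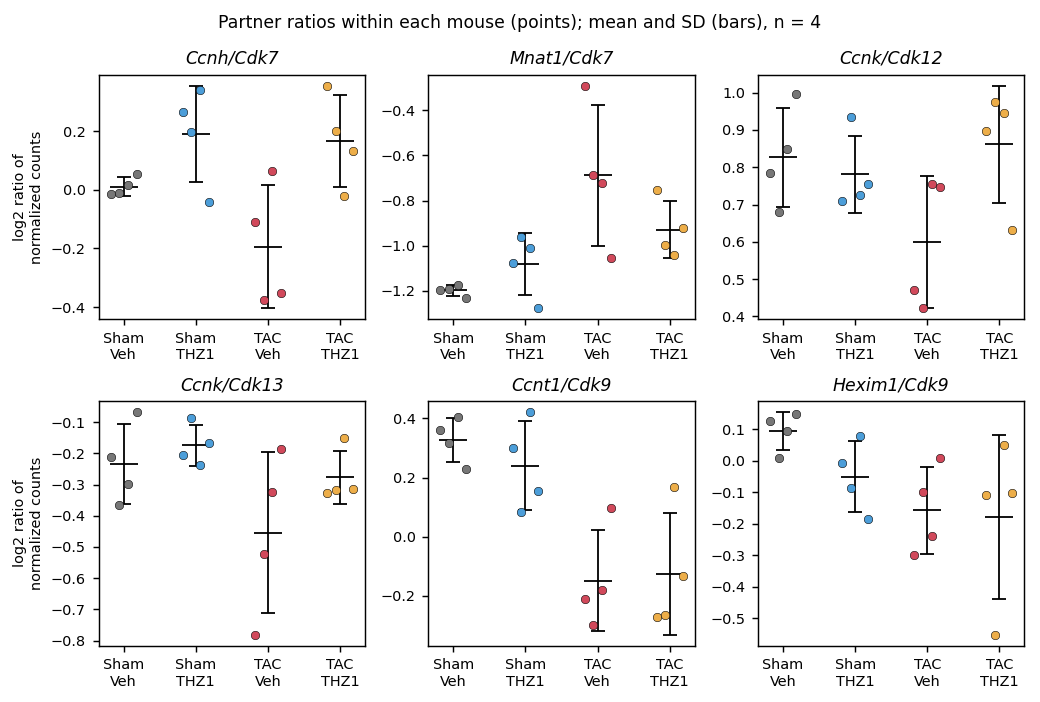
Log2 ratio of normalized counts of complex partners in each mouse (points), with the group mean and SD (bars), 4 mice a group. Mnat1/Cdk7 is higher and Ccnt1/Cdk9 lower in TAC-Veh than in Sham-Veh, by 0.51 and -0.48, without overlap.

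Other genes of the pathway, and further kinases and cyclins, were read from 5 lists. Beside the counts below, 45.0% of all genes tested were called after TAC (21.4% higher and 23.6% lower). With THZ1 in TAC the share was 29.4%, with 15.1% higher. The TFIIH core, to which the CDK-activating kinase docks, had 7 genes tested, of which 2 were higher and 1 lower after TAC and 0 changed with THZ1 in TAC, with medians of 0.01 and 0.02. Gtf2h5, a small stabilizing subunit, was highest after TAC (log2 0.32, limma adjusted p = 0.0144) and Ercc2, the XPD helicase that anchors the CDK-activating kinase, was lowest (-0.38, adjusted p = 0.00271). With THZ1 in TAC the extremes were Gtf2h4 at 0.21 and Ercc3 at -0.10, neither of which passed.

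Of 24 tested regulators of P-TEFb and elongation factors, 3 were higher and 5 lower after TAC (median 0.01), and 0 were higher and 2 lower with THZ1 in TAC (median 0.001). Ell2, a subunit of super elongation complexes that carry P-TEFb, was highest after TAC at 0.67 (limma adjusted p = 7.67e-07) and lowest with THZ1 in TAC at -0.44 (adjusted p = 1.71e-04). Mepce, the 7SK capping enzyme, had the highest value with THZ1 in TAC, 0.20 with an adjusted p of 0.0511.

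Of 12 other kinases and cyclins, 3 were higher and 3 lower after TAC (median -0.07), and 2 were higher and 1 lower with THZ1 in TAC (median -0.04). Cdk14 was highest after TAC at 0.72 (limma adjusted p = 4.10e-04) and lowest with THZ1 in TAC at -0.66 (adjusted p = 0.00205). Cdk18 was lowest after TAC at -0.51 (adjusted p = 1.33e-04) and Cdk20 highest with THZ1 in TAC at 0.56 (adjusted p = 0.0178).

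Among 10 CTD phosphatases and their scaffolds, which act against these kinases, 2 were higher and 3 lower after TAC (median -0.08), and 2 were higher and 1 lower with THZ1 in TAC (median -0.02). Ctdspl, a small CTD phosphatase, gave 0.71 after TAC (limma adjusted p = 1.55e-05) and -0.57 with THZ1 in TAC (adjusted p = 4.36e-04). Rprd1a, a CTD-binding scaffold, gave -0.59 (adjusted p = 2.75e-05) and 0.31 (adjusted p = 0.00953). These are the extremes of the list in both comparisons.

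Of 10 tested long DNA repair genes linked to CDK12, 2 were lower after TAC (median -0.08), with Mdc1 lowest at -0.31 (limma adjusted p = 0.0472), and 1 was lower with THZ1 in TAC (median -0.17). That gene was Brca1, at -1.21 ± 0.41 (limma adjusted p = 0.0340), and the same gene had the highest value after TAC, 0.38, which did not pass. The highest with THZ1 in TAC was Mdc1, at 0.13. In sham mice 0 genes of all 5 lists were called with THZ1, beside 0.0675% of all genes. The first 2 comparisons share the TAC-Veh libraries, so opposite signs in them are not separate observations.

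**Figure D5:**
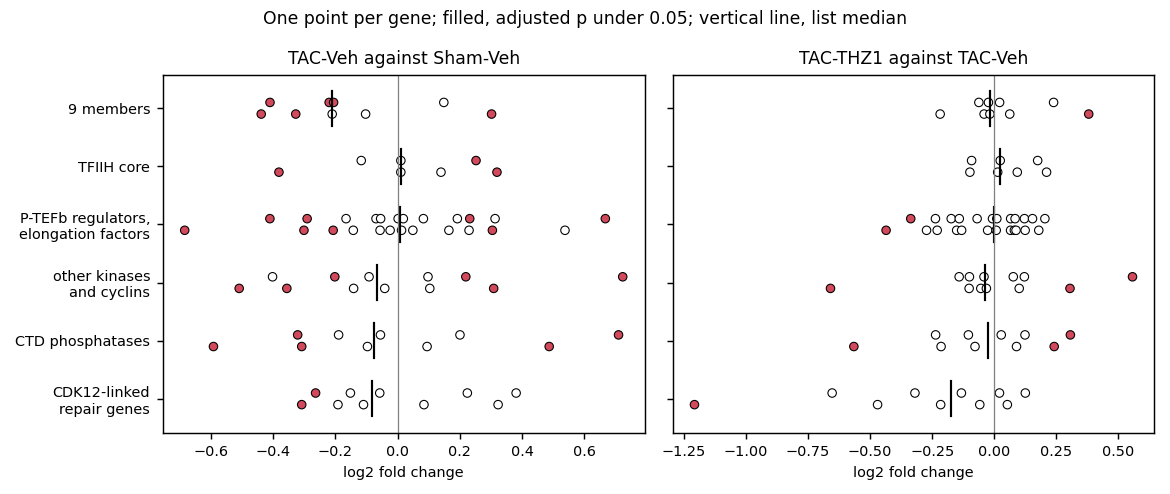
Log2 fold change of the 9 members and of every tested gene of the 5 pathway lists, after TAC (left) and with THZ1 in TAC (right); filled points passed a limma adjusted p of 0.05 and vertical lines are list medians. The members' median of -0.21 after TAC lies to the left of the other list medians (-0.08 to 0.01), and with THZ1 in TAC it is -0.02.

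The gene whose profile over the 16 libraries lay nearest to each member was found among 10316 others whose mean normalized count was 100 or more, by the root mean square difference of centred log2 values. Nearest to Ccnk were Sf3a2 (0.06) and Wiz (0.07), where the median gene was 0.30 away. Nearest to Ccnh were Gnpat and Bcap29 (both 0.07, median 0.25), and nearest to Mnat1 were Sec11a and Ddx50 (both 0.07, median 0.28). For Cdk7 they were Nup153 (0.07) and Osgin2 (0.08), with a median of 0.22.

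For Cdk12 the nearest were Mafg and Sec16a (both 0.08, median 0.26), and for Cdk13 Arfgef2 (0.05) and Ubap2l (0.06, median 0.22). Ankrd46 (0.06) and Limd1 (0.07) were nearest to Cdk9 (median 0.21), and Slc4a7 and Zbtb33 (both 0.08) to Ccnt1 (median 0.27). C78339 (0.08) was among the 2 nearest to Hexim1 (median 0.23). No member was among the 2 nearest of another.

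The members lie on 5 chromosomes of NCBIM37: Cdk7 (ENSMUSG00000069089.6) at chr13:101466982-101500897, Ccnh (ENSMUSG00000021548.4) at chr13:85329013-85363074, Mnat1 (ENSMUSG00000021103.6) at chr12:74224704-74374975, Cdk12 (ENSMUSG00000003119.7) at chr11:98064373-98139818 and Cdk13 (ENSMUSG00000041297.7) at chr13:17807796-17896931. Ccnk (ENSMUSG00000021258.8) is at chr12:109424580-109441569, Cdk9 (ENSMUSG00000009555.10) at chr2:32561304-32568596, Ccnt1 (ENSMUSG00000011960.6) at chr15:98369120-98401354 and Hexim1 (ENSMUSG00000048878.5), which has a single exon, at chr11:102977639-102981039. Exons of Ccdc125, Rasa1 and 9330020H09Rik overlap those of Cdk7, Ccnh and Ccnt1 on the opposite strand by 213, 12 and 695 bases, and reads were counted by strand. Cdk9 shares 82 and 73 exon bases with 2 annotated miRNA genes on its own strand.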

How the data were processed

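Ventricle RNA from 16 mice (4 groups of 4) was sequenced from TruSeq stranded mRNA libraries. The authors aligned reads to mm9 with TopHat2 2.1.1, counted them per GENCODE gene by strand with HTSeq, and deposited a signal table of read counts divided by DESeq2 size factors (0.749 to 1.40). In every library all values were whole multiples of the smallest step within 0.01, which gave whole reads, 21431703 to 35812869 per library. All 22372 identifiers matched GENCODE vM1 on NCBIM37. The 13331 genes that reached a normalized count of 10 in 4 or more libraries were tested with limma 3.58.1 (trended empirical Bayes) on log2(normalized count + 1), with a mean per group over all 16 libraries, 95% intervals and Benjamini-Hochberg adjustment over all genes tested. Genes were called at an adjusted p under 0.05. Fold changes are on that scale. Partner ratios were tested by exact permutation with scipy 1.17.1. The fits were tested on simulated counts that had the same spread in all groups and few changed genes. That test therefore does not cover the wider spread in TAC-Veh. Alternatives were pseudocounts of 0.5 and 5, no filter, upper quartile scaling, library weights, a replicate block, DESeq2 1.42.0 and edgeR 4.0.16 on recovered reads, the groups compared alone, and leaving out each library. All 9 members were named, with the extremes of each pathway list in TAC-Veh against Sham-Veh and TAC-THZ1 against TAC-Veh, and the 2 nearest profiles, except for 2 genes that are not reported here. Cdc73 and Tnnc1, which matched 2 rows each, and Rad51d, which matched none, were left out of the lists. The members and lists were chosen with earlier results of these data known. Intervals cover the spread between mice, pooled over all 4 groups, and read counts without molecular identifiers are not independent molecules.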

Additional observations from a re-analysis of the deposited data

Results flagged for a closer look

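The effect of THZ1 on Ccnh differed between TAC and sham mice by 0.46 on the log2 scale (95% interval 0.23 to 0.68, limma adjusted p = 0.0155), by a test of the difference itself. Among 60 sets of 4 mice checked for a single mouse apart from the others (9 members and 6 ratios in 4 groups), 1 stood out: the log2 ratio Ccnk/Cdk13 of TAC-THZ1 mouse 3 was -0.15, where the group median was -0.32 and the lowest mouse was at -0.33. Chance gives about 1 such set in 20.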

How the results depend on the processing

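The replicate block gave the same numbers of members called, 6, 1, 0, 4 and 1 (TAC-Veh against Sham-Veh, TAC-THZ1 against TAC-Veh, Sham-THZ1 against Sham-Veh, TAC-THZ1 against Sham-THZ1, interaction). Replicate numbers did not pair the mice: same-number correlations of deviations were -0.43 to 0.12 over 16 pairs, 1 of them over 0.1, and 2 libraries correlated best with their own number. Without 1 library, 5 to 7, 1 to 3, 0, 2 to 4 and 1 to 2 members were called, beside 38.0 to 48.2%, 20.1 to 34.3%, 0.0225 to 0.0900%, 14.8 to 24.4% and 5.18 to 18.6% of all genes. Members called were 1 in Sham-THZ1 against Sham-Veh with library weights or the 2 groups alone, where the share of all genes called was 3.85% and 3.49% in place of 0.0675%, and 2 in the interaction with upper quartile scaling or DESeq2, where it was 10.8% and 13.8% in place of 10.0%. In TAC-Veh against Sham-Veh, library weights or the 2 groups alone called 5, beside 37.2% and 35.5% of genes. In TAC-THZ1 against Sham-THZ1, no filter, upper quartile scaling or edgeR called 3, beside 16.3%, 24.3% and 24.4%. Library weights or the 2 groups alone called 5 there, beside 37.6% and 33.1%. In TAC-THZ1 against TAC-Veh these 2 settings called 1 member, beside 18.1% and 10.5%. Signs changed in 28 of 432 values of single members that left out 1 library and in 5 of 396 from the other alternatives, all within 0.06 of 0. Values without 1 library ranged, with THZ1 in TAC, from -0.011 to 0.067 for Cdk7, -0.086 to 0.048 for Cdk12 and -0.075 to 0.056 for Ccnt1; with THZ1 in sham from -0.050 to 0.035 for Ccnt1; in TAC-THZ1 against Sham-THZ1 from -0.043 to 0.061 for Cdk9; and in the interaction from -0.19 to 0.043 for Mnat1, -0.022 to 0.044 for Cdk13, -0.075 to 0.056 for Ccnt1 and -0.073 to 0.055 for Hexim1. Ccnt1 with THZ1 in sham was -0.013 with upper quartile scaling, -0.0077 with library weights and -0.0034 with edgeR, and the interaction with upper quartile scaling was 0.0015 for Ccnt1 and 0.014 for Hexim1. Ratios that crossed 0 without 1 library were Ccnt1/Cdk9 (-0.075 to 0.11) and Hexim1/Cdk9 (-0.097 to 0.10) with THZ1 in TAC, Ccnk/Cdk12 (-0.097 to 0.010) with THZ1 in sham and Ccnh/Cdk7 (-0.10 to 0.038) in TAC-THZ1 against Sham-THZ1. The cause was not tested. No ratio passed the adjusted test in any setting, and with 3 mice against 4 the exact test cannot go below 0.0571. Counting error of the members was 3.11 to 7.02% per library, and in 9 of 36 sets of 4 mice the coefficient of variation was below it, so read depth also limits the precision.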
